A study of Mus musculus with 24 samples.

Results

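The 30 genes described here encode enzymes and regulators of cholesterol and fatty acid synthesis, and were taken by symbol from a list in pathway order. The list holds 7 genes of the mevalonate pathway, 11 of the sterol branch, 5 regulators of sterol-responsive transcription, 2 genes of cholesterol transport and 5 of fatty acid synthesis. All 30 were among the 45706 gene entries counted and among the 15221 genes that passed the filter on low counts. RNA was sequenced from mouse embryonic fibroblasts (MEFs), primary connective tissue cells, of male C57BL/6 embryos of day 13.5. Head and internal organs had been removed, and the cells were grown for 7 days in high-glucose medium with fetal bovine serum. The mutant cells carried GR Zn/Zn on both chromosomes, an allele of the glucocorticoid receptor (GR) with a changed zinc finger in the DNA-binding domain, and the others were GR wild type. Cells of each genotype received both dexamethasone (Dex) and bacterial lipopolysaccharide (LPS), LPS, Dex, or ethanol vehicle. Dex, a synthetic glucocorticoid, was given at 1 uM for 16 h and LPS at 100 ng/ul for 6 h, and all groups had the ethanol that carried Dex. Each of the 8 groups had 3 libraries. Since the labels name no embryo or culture for any replicate, p-values cover only how these libraries vary, which may be technical. Effects of the mutation and of the embryos used cannot be told apart.

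The mevalonate pathway turns acetyl-CoA into isoprenoid units, which are joined to squalene, closed to the ring of lanosterol and trimmed to cholesterol by the sterol branch. Most of these genes are driven by the SREBP transcription factors, encoded by Srebf1 and Srebf2. The escort protein SCAP carries them to the Golgi for activation when membrane sterols are low, and INSIG proteins hold them back when sterols are high. The glucocorticoid receptor is a hormone-activated transcription factor, and LPS activates innate immune signalling through TLR4, to which fibroblasts respond.

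RefSeq promoter entries on GRCm38.p6 were matched by symbol for 25 of the 30 genes, each covering 300 bases, 250 before and 50 after a transcription start. They were searched on both strands for letters that fit known factors. CCAAT, the core word bound by NF-Y, a partner of SREBP at sterol genes, stood in at least 1 promoter of 20 of the 25 genes (80%) and of 41.1% of the 27025 genes with an entry. The sterol regulatory element was searched as TCACNCCAC and found for Hmgcs1 alone, 4% of the 25, against 1.44% of all genes. The looser word TCACNNCAC, which contains the first as a special case, was found for Hmgcs1, Msmo1, Hsd17b7 and Dhcr7, 16% of the 25, against 4.37% of all genes. CACGTG, a word that SREBP and other helix-loop-helix factors bind, was found for 6 of the 25 genes (24%) and 8.09% of all genes. The palindromic glucocorticoid response element, searched as AGAACA, 3 free bases and TGTTCT, was found for 0 of the 25 and for 0.0111% of all genes, which says only that these letters are not in these windows. Such matches describe the letters and are not measured binding.

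The 250 bases before the start are shown for 5 genes. Hmgcs1 is an early enzyme of the pathway and its promoter held both words. Lss closes the sterol ring and had the largest Dex response of the 30 in wild-type cells without LPS. Msmo1 had the lowest adjusted p between mutant and wild-type cells with Dex. Insig1 and Insig2 are sister genes that moved in opposite directions. Capitals mark CCAAT or its reverse complement ATTGG, and TCACNNCAC. In Msmo1 the 2 words share 1 base. The stretches, each printed 5′ to 3′ on the gene's own strand, are chr13:119690101-119690350 (plus strand) for Hmgcs1, chr10:76531355-76531604 (plus) for Lss, chr8:64733579-64733828 (minus) for Msmo1, chr5:28071162-28071411 (plus) for Insig1 and chr1:121332590-121332839 (minus) for Insig2, whose other RefSeq starts held neither word.
Hmgcs1: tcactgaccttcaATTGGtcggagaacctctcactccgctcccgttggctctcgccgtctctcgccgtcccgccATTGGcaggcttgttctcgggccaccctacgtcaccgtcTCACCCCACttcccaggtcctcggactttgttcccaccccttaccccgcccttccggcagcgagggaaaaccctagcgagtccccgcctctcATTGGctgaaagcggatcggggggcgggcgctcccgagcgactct
Lss: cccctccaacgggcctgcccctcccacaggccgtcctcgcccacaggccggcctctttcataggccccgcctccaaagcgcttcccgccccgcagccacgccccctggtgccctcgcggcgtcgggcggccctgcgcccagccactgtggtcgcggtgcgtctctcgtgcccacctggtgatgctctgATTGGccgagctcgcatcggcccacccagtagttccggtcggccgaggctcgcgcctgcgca
Msmo1: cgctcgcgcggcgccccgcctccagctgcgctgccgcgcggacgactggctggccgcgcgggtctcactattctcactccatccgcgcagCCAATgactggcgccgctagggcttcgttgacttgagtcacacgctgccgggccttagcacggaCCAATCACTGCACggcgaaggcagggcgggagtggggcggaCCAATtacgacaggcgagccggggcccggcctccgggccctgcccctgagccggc
Insig1: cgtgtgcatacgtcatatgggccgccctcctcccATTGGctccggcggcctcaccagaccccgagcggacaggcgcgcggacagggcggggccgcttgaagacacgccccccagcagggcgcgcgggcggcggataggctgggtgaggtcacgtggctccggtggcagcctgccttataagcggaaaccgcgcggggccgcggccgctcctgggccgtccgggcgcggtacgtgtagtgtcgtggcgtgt
Insig2: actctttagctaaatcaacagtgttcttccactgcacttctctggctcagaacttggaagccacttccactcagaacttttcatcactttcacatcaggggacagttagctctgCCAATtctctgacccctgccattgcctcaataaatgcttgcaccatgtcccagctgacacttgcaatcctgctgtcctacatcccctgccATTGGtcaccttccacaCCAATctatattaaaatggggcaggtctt
Hmgcs1 held 3 ATTGG words and 1 TCACCCCAC. Msmo1 held 3 CCAAT words, and Insig2, which moved against the synthesis genes, also held 3, counting both strands.

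Levels are given as counts scaled to 1000000 counted reads (CPM) with edgeR's TMM factors. The counted reads numbered 18.9 to 25.5 M in most libraries, and 43.9 to 58.0 M in 3 of them (mutant vehicle replicate 1, mutant LPS replicate 2 and wild-type Dex with LPS replicate 3). These 3, with mutant Dex with LPS replicate 2 and wild-type Dex with LPS replicate 1, stood apart from their groups. A chi-square of the counts, divided by its degrees of freedom, lay between 8.70 and 61.1 for the 9 replicate pairs that hold any of the 5 and between 1.56 and 5.05 for the other 15. Counts of called genes are therefore also given without these 5 libraries. Only replicate 2 of wild-type Dex with LPS is then left, so no such counts are given for comparisons with that group. The 12 fibroblast markers summed to between 28830 and 37600 CPM in every library, most of it from Col1a1, Col1a2, Fn1 and Vim. This sum does not show that single markers were alike, and several differed with genotype, as given below. A gene was called at an adjusted p below 0.05, Benjamini-Hochberg over the 15221 genes, in edgeR's quasi-likelihood test. In bulk RNA, fewer cells of a type and less RNA per cell cannot be told apart.

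Divided by the length of all annotated exons, the levels in vehicle spanned from Scd2, an enzyme that puts the first double bond into stearate, to Abca1, the pump that loads cholesterol onto lipoproteins. Scd2 had 428 ± 7.09 CPM per kb in mutant and 367 ± 4.08 CPM per kb in wild-type cells (SD, n = 3 each). Acly, which makes cytosolic acetyl-CoA, followed with 104 ± 2.12 in mutant and 90.8 ± 1.01 CPM per kb in wild-type cells. Next came Hmgcs1 with 97.0 ± 4.49 CPM per kb in mutant and 78.8 ± 1.82 CPM per kb in wild-type cells. Cyp51, the lanosterol demethylase, had 80.8 ± 3.04 CPM per kb in mutant and 66.5 ± 0.951 CPM per kb in wild-type cells. Acat2, Insig1 and Fasn lay between 47.1 and 48.1 CPM per kb in mutant cells and did not differ beyond their SDs of 2.87 to 8.93. Abca1 (2.72 ± 0.134 in mutant, 2.55 ± 0.186 CPM per kb in wild-type cells) and the sterol reductase Tm7sf2 (3.06 ± 0.163 in mutant, 2.56 ± 0.305 CPM per kb in wild-type cells) were lowest and not separated from each other in wild-type cells. Fdps, at 3.92 ± 0.311 in mutant and 2.91 ± 0.0696 CPM per kb in wild-type cells, has 4 near-identical copies. Reads that fit several places were not counted, so its level is uncertain. The same limit touches Acat2, Hmgcs1, Idi1, Fdft1, Acaca, Scd2 and Elovl6, each with a stretch of at least 300 bases at 95% identity or more elsewhere in the transcriptome.

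**Figure D1:**
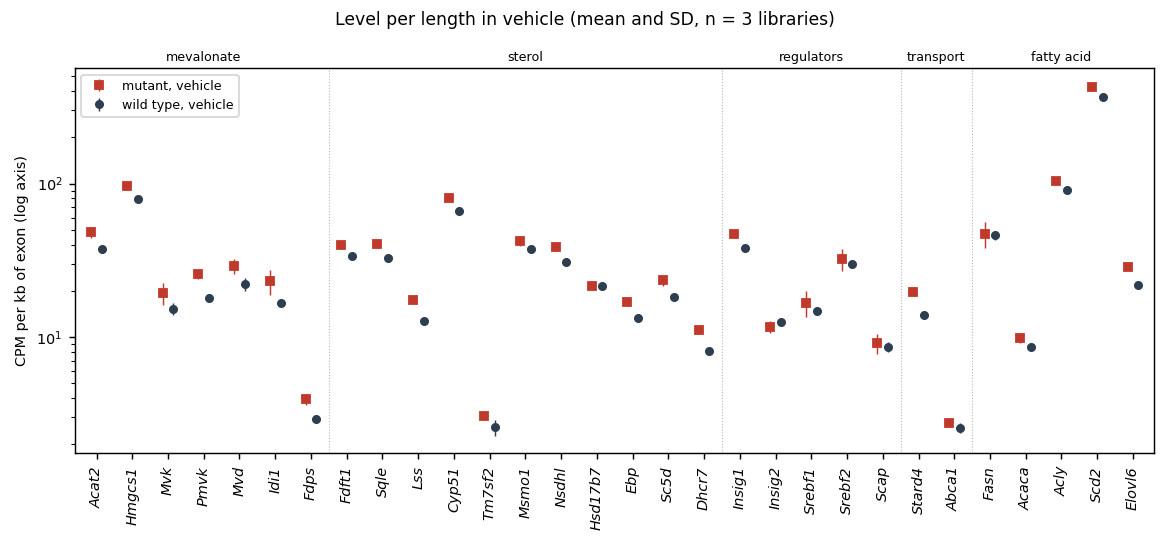
Level in vehicle of the 30 genes in pathway order, as CPM per kb of exon on a log axis (squares mutant, circles wild type; mean and SD of 3 libraries). Scd2 is highest at 428 CPM per kb in mutant and 367 in wild-type cells, and Abca1, Tm7sf2 and Fdps lie below 4.

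In vehicle, the synthesis genes were higher in mutant than in wild-type cells: 20 of the 30 were called higher and 0 lower, where 8.69% of all tested genes were called higher and 10.1% lower, or 18.8% in either direction. The median log2 ratio over the 30 was 0.30, against -0.01 over all tested genes. In the mevalonate pathway 6 of 7 genes were higher, in the sterol branch 9 of 11, among regulators Insig1 of 5, in transport Stard4 of 2, and in fatty acid synthesis Acly, Scd2 and Elovl6 of 5. The changes were small, between 1.12-fold for Msmo1 and 1.43-fold for Pmvk among the called genes.

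Hmgcs1, HMG-CoA synthase, had 469, 439 and 429 CPM in mutant vehicle libraries, against 353, 364 and 369 CPM in wild-type ones. Pmvk, the phosphomevalonate kinase, had 41.5, 47.5 and 42.5 CPM in mutant and 29.2, 32.7 and 30.1 CPM in wild-type vehicle libraries. For both genes all 3 mutant libraries were above all 3 wild-type ones, with log2 ratios of 0.30 ± 0.07 (SE; edgeR adjusted p = 0.00404) for Hmgcs1 and 0.51 ± 0.08 (SE; edgeR adjusted p = 7.02e-05) for Pmvk. Acat2 (0.35 ± 0.07), Mvd (0.38 ± 0.10), Idi1 (0.48 ± 0.13) and Fdps (0.42 ± 0.11), which act in acetoacetyl-CoA formation, decarboxylation, isomerisation and farnesyl diphosphate synthesis, were also called. Mvk, mevalonate kinase, was not: 42.8, 59.6 and 52.6 CPM in mutant and 36.99, 43.8 and 41.9 CPM in wild-type cells overlapped, with a log2 ratio of 0.33 ± 0.13 (SE; edgeR adjusted p = 0.0867).

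In the sterol branch, Lss, lanosterol synthase, had 179, 188 and 194 CPM in mutant and 134, 135 and 139 CPM in wild-type vehicle libraries, a log2 ratio of 0.46 ± 0.05 (SE; edgeR adjusted p = 1.05e-07). Dhcr7, the last reductase of the branch, had 62.7, 66.9 and 64.8 CPM in mutant and 44.4, 49.1 and 47.1 CPM in wild-type libraries (log2 ratio 0.47 ± 0.05 SE, edgeR adjusted p = 1.12e-06). Neither gene's groups overlapped. Sqle, squalene epoxidase and a rate-limiting step, had 235, 222 and 213 CPM in mutant and 180.1, 181 and 180 CPM in wild-type libraries (log2 ratio 0.31 ± 0.05 SE, edgeR adjusted p = 6.09e-05). Sc5d, the desaturase ahead of Dhcr7 (0.36 ± 0.07), Ebp, the sterol isomerase (0.35 ± 0.08), Nsdhl, a C4 decarboxylase (0.32 ± 0.06), Cyp51 (0.28 ± 0.04), Fdft1, squalene synthase (0.24 ± 0.05), and Msmo1, the C4 methyl oxidase (0.17 ± 0.05), were called as well. Hsd17b7, the sterol ketoreductase, had 109 ± 3.496 CPM in mutant and 109 ± 2.52 CPM in wild-type cells (SD, n = 3 each) and was not called.

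Stard4, which carries cholesterol through the cytosol, had 108, 110 and 110 CPM in mutant and 78.5, 78.2 and 77.2 CPM in wild-type vehicle libraries, with a log2 ratio of 0.49 ± 0.08 (SE; edgeR adjusted p = 5.15e-05). Elovl6, which lengthens palmitate, had 183, 180.4 and 187 CPM in mutant and 142, 135 and 142 CPM in wild-type libraries (log2 ratio 0.39 ± 0.08 SE, edgeR adjusted p = 0.0011). In both cases the groups did not overlap. Scd2 (0.22 ± 0.06) and Acly (0.19 ± 0.06) were higher by less, while Fasn, the fatty acid synthase, with 404, 558 and 585 CPM in mutant and 469, 513 and 531 CPM in wild-type libraries, overlapped and was not called.

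Mutant vehicle replicate 1, 1 of the 5 libraries that stood apart, was the low library for Fasn. It was also the low one for Srebf1 (72.9, 105 and 103 CPM in mutant vehicle, in replicate order, and 78.1, 85.8 and 85.02 CPM in wild-type vehicle), for Srebf2 (189, 261 and 243 CPM in mutant, 204, 219.7 and 219.6 CPM in wild type) and for Scap (55.6, 74.2 and 72.8 CPM in mutant, 58.8, 65.5 and 67.8 CPM in wild type). Without the 5 libraries, 27 of the 30 genes were called higher in mutant vehicle cells and 1, Insig2, lower, where 14.3% of all tested genes were called higher and 15.1% lower in that fit. The 7 gained were Mvk, Tm7sf2, Scap, Srebf1, Srebf2, Fasn and Acaca. The median log2 ratio over the 30 was 0.27 in that fit, against 0.30 with all libraries.

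Other cell types' markers differed with genotype. All 7 tested leukocyte markers of the 9 listed were called higher in mutant vehicle cells, with a summed level of 177 to 188 CPM in mutant and 77.0 to 78.6 CPM in wild-type vehicle libraries, Cd3e being at 0 in every library. The 6 endothelial markers summed to 10.8 to 12.9 CPM in mutant and 27.2 to 28.6 CPM in wild-type vehicle libraries, with Pecam1 and Tie1 at or near 0. The 6 epithelial markers summed to 4.01 to 4.28 CPM in mutant and 14.1 to 16.5 CPM in wild-type vehicle libraries, with Epcam, Cdh1 and Krt5 at or near 0. Of the 12 fibroblast markers 8 were called higher and 1 lower. Pdgfra had 157 ± 6.4 CPM in mutant and 34.1 ± 0.543 CPM in wild-type vehicle cells, and Thy1 718 ± 80.0 and 317 ± 3.75 CPM. Fn1 was the other way, at 7521 ± 790 CPM in mutant and 11890 ± 388 CPM in wild-type vehicle cells (SD, n = 3 each). The liver list, chiefly Alb, varied within groups, at 27.1 to 197 CPM in mutant and 80.3 to 170 CPM in wild-type vehicle libraries. The part of these cells in the genotype differences was not tested.

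**Figure D2:**
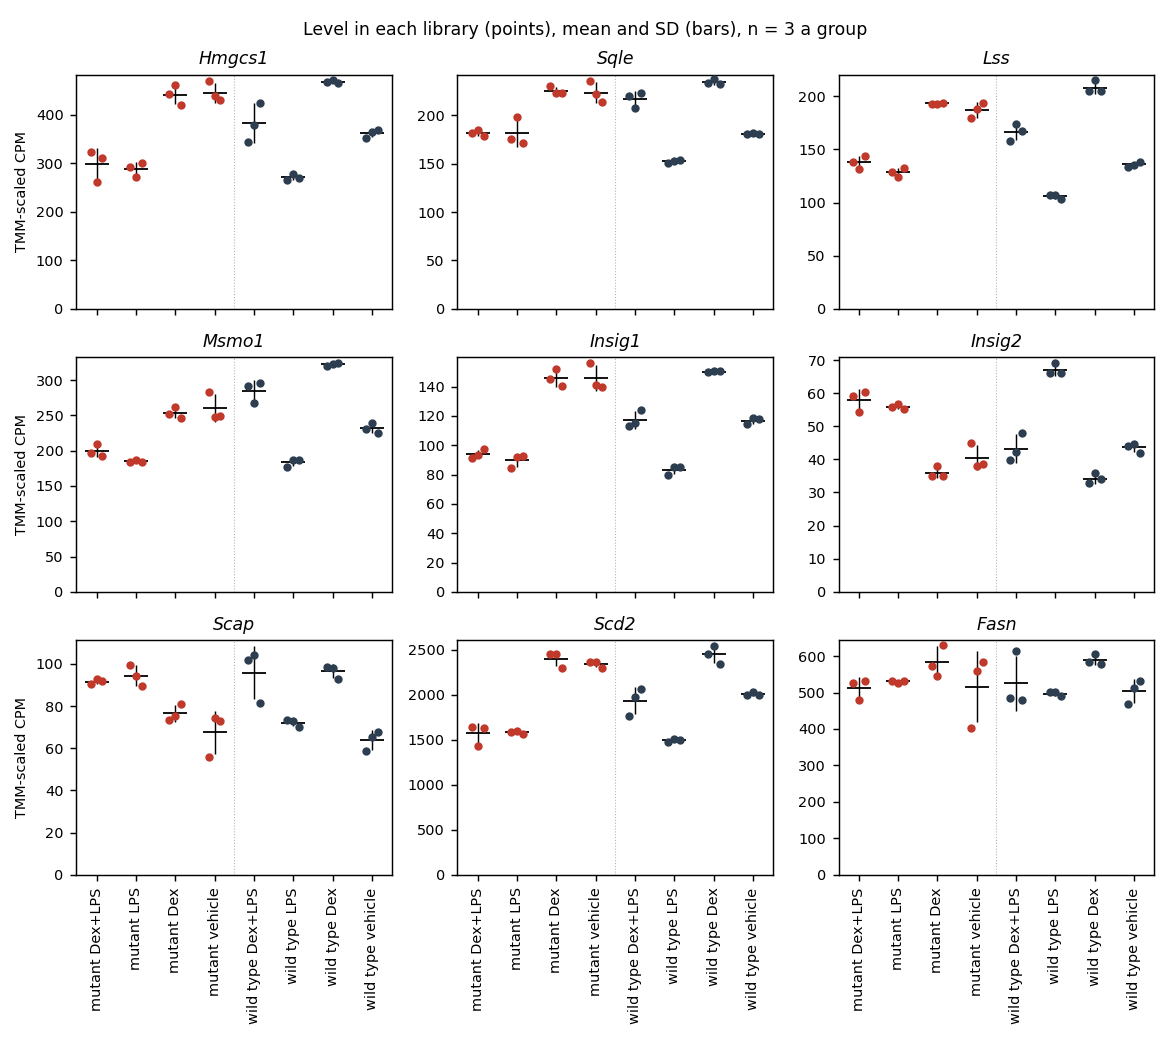
TMM-scaled CPM of 9 of the 30 genes in each library (red mutant, dark wild type), with the mean and SD of 3 libraries, each axis starting at 0. Lss lies at 179 to 194 CPM in mutant vehicle and 134 to 139 CPM in wild-type vehicle libraries, and Insig2 is highest in wild-type cells with LPS.

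In mutant cells Dex changed 0 of the 30 genes and 0 of all tested genes (0.0%) by edgeR. At an unadjusted p below 0.05 there were 5 of the 30 and 1109 of all tested genes, and DESeq2 also called 0 of the 30. Lss had 193, 193 and 194 CPM with Dex and 179, 188 and 194 CPM in vehicle in mutant cells, and the 95% interval of its log2 ratio was -0.04 to 0.14. For Insig1, with 145, 152 and 140.4 CPM with Dex and 156, 141 and 140 CPM in vehicle, it was -0.10 to 0.10, and for Msmo1 -0.14 to 0.06. The interval of Mvd, mevalonate diphosphate decarboxylase, was 0.08 to 0.48 and that of Scap 0.00 to 0.37. The 3 mutant Dex libraries of Mvd (63.1, 62.3 and 69.5 CPM) were above the vehicle ones (46.99, 58.9 and 54.99 CPM).

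In wild-type cells Dex raised synthesis genes. Of the 30, 18 were called higher with Dex than with vehicle and 1, Insig2, lower, where 7.92% of all tested genes (1205) were called higher and 5.24% (798) lower. With libraries scaled by total counts alone the split over all genes was 965 higher and 1146 lower. The median log2 ratio of the 30 was 0.34, against 0.00 over all tested genes. The called genes were 6 of 7 in the mevalonate pathway, 8 of 11 in the sterol branch, Insig1, Insig2 and Scap among regulators, Stard4 in transport and Scd2 in fatty acid synthesis.

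Lss showed the largest rise, to 205, 215 and 205 CPM in wild-type Dex libraries, against 134, 135 and 139 CPM in vehicle, or 1.53-fold, a log2 ratio of 0.62 ± 0.05 (SE; edgeR adjusted p = 1.06e-09). Scap rose nearly as far, to 98.7, 98.1 and 92.6 CPM with Dex, against 58.8, 65.5 and 67.8 CPM in vehicle (log2 ratio 0.59 ± 0.09 SE, edgeR adjusted p = 7.06e-05). All 3 Dex libraries lay above all 3 vehicle libraries for both. In the mevalonate pathway, Pmvk had 44.9, 46.7 and 44.1 CPM with Dex and 29.2, 32.7 and 30.1 CPM in vehicle (log2 ratio 0.56 ± 0.08 SE, edgeR adjusted p = 3.13e-05). Mvd had 62.02, 62.1 and 56.7 CPM with Dex and 36.8, 42.6 and 43.8 CPM in vehicle (log2 ratio 0.55 ± 0.10 SE, edgeR adjusted p = 0.000535). Mvk (0.54 ± 0.13), Fdps (0.41 ± 0.11), Acat2 (0.38 ± 0.07) and Hmgcs1 (0.37 ± 0.07) also rose. Idi1 had a log2 ratio of 0.36 ± 0.13 (SE; edgeR adjusted p = 0.0875) and was not called.

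Msmo1 had 320.1, 323 and 324 CPM with Dex and 231, 239 and 225 CPM in vehicle, with no overlap and a log2 ratio of 0.48 ± 0.05 (SE; edgeR adjusted p = 4.11e-07). Nsdhl (0.40 ± 0.06), Dhcr7 (0.38 ± 0.06), Sqle (0.38 ± 0.05), Cyp51 (0.32 ± 0.04), Fdft1 (0.31 ± 0.05) and Sc5d (0.24 ± 0.07) rose by less. Tm7sf2, Hsd17b7 and Ebp were not called, with log2 ratios of 0.26, 0.27 and 0.14. Of the fatty acid genes Scd2 rose, to 2456, 2541 and 2343 CPM with Dex against 1997, 2033 and 1993 CPM in vehicle (log2 ratio 0.29 ± 0.06 SE, edgeR adjusted p = 0.000751). Fasn, Acly, Elovl6 and Acaca, the enzyme that makes malonyl-CoA, were not called, with log2 ratios of 0.10 to 0.22. Abca1, a target of the liver X receptors, went the other way without being called, with 21.5, 20.4 and 18.04 CPM with Dex and 26.97, 24.2 and 27.9 CPM in vehicle (log2 ratio -0.40 ± 0.17 SE, edgeR adjusted p = 0.161).

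Fitted without the 5 libraries that stood apart, none of which is in these 2 groups, 27 were called higher and 2 lower with Dex in wild-type cells (14.9% and 12.5% of all tested genes in that fit). Fitted on the 6 compared libraries alone, 28 were called higher and 2 lower (17.9% and 14.9%). Both fits thus called more of all genes as well, and both added Abca1 to the lower genes. The 8 adipocyte markers summed to 24.5 to 26.3 CPM with Dex and 8.08 to 9.73 CPM in vehicle in wild-type cells, with Adipoq, Plin1, Cidec, Lep, Retn and Cfd at or near 0. The rise was that of Fabp4, with 20.6 ± 1.23 CPM with Dex and 3.69 ± 0.533 CPM in vehicle, while Pparg had 4.81 ± 0.378 CPM with Dex and 5.19 ± 0.312 CPM in vehicle (SD, n = 3 each) and was not called. The leukocyte markers summed to 60.4 to 68.3 CPM with Dex and 77.0 to 78.6 CPM in vehicle, with 3 of the 7 tested called lower and 0 higher. Most of the sum was Lyz2, with 35.5 ± 2.21 CPM with Dex and 46.0 ± 1.37 CPM in vehicle. Itgam went the other way without being called, with 6.16 ± 0.939 CPM with Dex and 4.48 ± 0.514 CPM in vehicle (SD, n = 3 each). The part of such cells in the Dex response was not tested.

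The test of the difference itself, the Dex response in mutant minus that in wild-type cells, called 13 of the 30 lower and 0 higher, where 4.4% of all tested genes were called lower and 2.6% higher, or 6.99% in either direction. For Lss, Msmo1 and Insig1 the intervals in mutant cells exclude rises of the size fitted in wild-type cells, and for Mvd and Scap they come closer to it. Lss differed most clearly, by -0.57 ± 0.06 (SE; edgeR adjusted p = 2.04e-06), followed by Msmo1 with -0.52 ± 0.07 (SE; edgeR adjusted p = 3.77e-05) and Nsdhl with -0.43 ± 0.08 (SE; edgeR adjusted p = 0.000909). The others called were Acat2, Hmgcs1 and Pmvk in the mevalonate pathway, Fdft1, Sqle, Cyp51, Sc5d and Dhcr7 in the sterol branch, Insig1 and Stard4. No fatty acid gene was called, Scd2 being closest with -0.25 ± 0.08 (SE; edgeR adjusted p = 0.0597). Without the 5 libraries 20 were called lower and 1, Insig2, higher (8.33% and 5.58% of all tested genes).

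**Figure D3:**
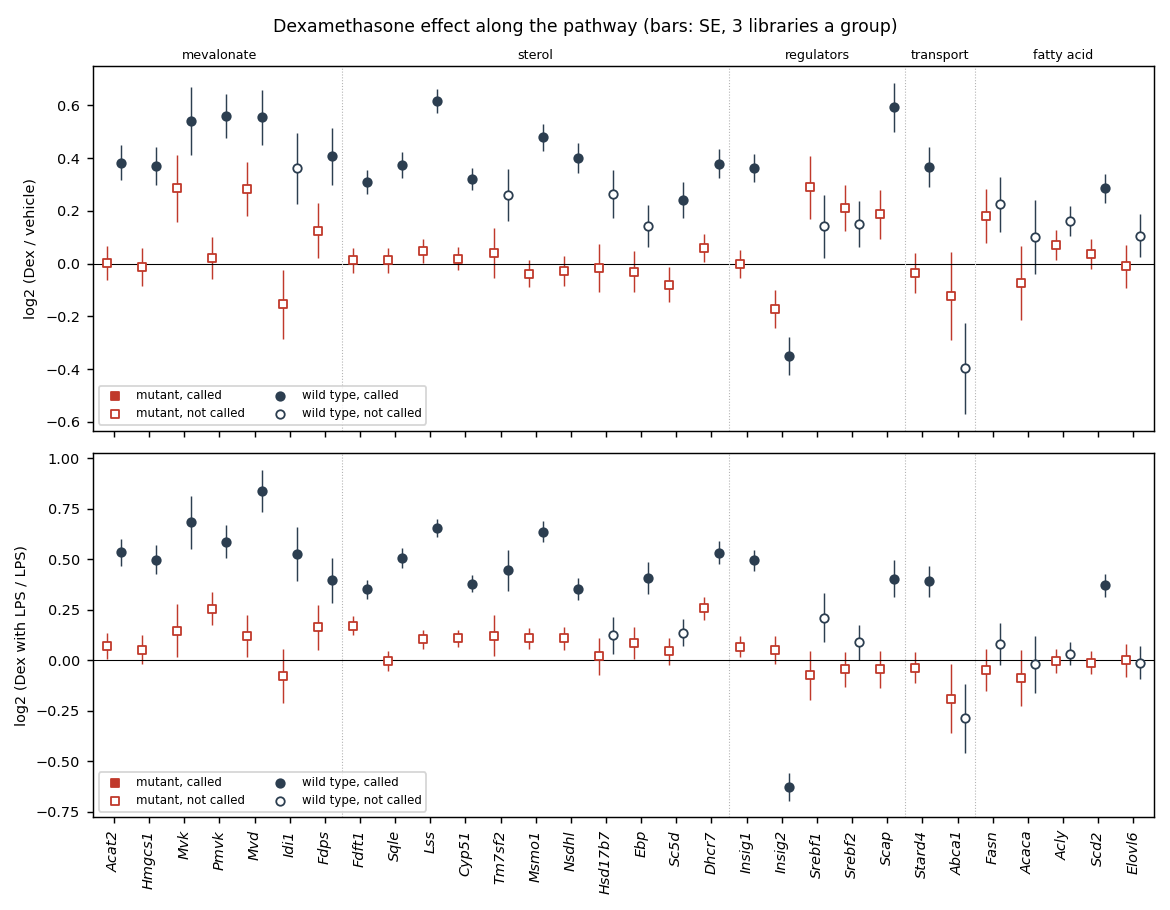
Log2 ratio of Dex to vehicle (top) and of Dex with LPS to LPS (bottom) for the 30 genes in pathway order, in mutant (red squares) and wild-type cells (dark circles), with SE from the edgeR fit; filled symbols were called. Wild-type values lie mostly between 0.2 and 0.8 in the mevalonate and sterol groups, and no mutant symbol is filled.

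In mutant cells under LPS, Dex changed 0 of the 30 by edgeR, where 0.00657% of all tested genes, a single gene, was called. At an unadjusted p below 0.05 there were 6 of the 30 and 889 of the 15221 tested genes, and DESeq2 called 1 of the 30, Dhcr7. Dhcr7 had 39.7, 45.1 and 42.03 CPM with Dex and LPS and 35.03, 35.5 and 35.5 CPM with LPS in mutant cells, with no overlap and a log2 ratio of 0.26 ± 0.06 (SE; edgeR adjusted p = 0.174). Fdft1 was next, at 0.17 ± 0.05 (SE; edgeR adjusted p = 0.297), and was the gene called without the 5 libraries.

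With LPS present, Dex raised 20 of the 30 genes in wild-type cells and lowered Insig2, where 10.5% of all tested genes were called higher and 10.6% lower. All 7 mevalonate genes and 9 of 11 sterol genes were higher, the exceptions being Hsd17b7 and Sc5d. The median over the 30 was 0.39, against 0.01 over all tested genes. Of these 20 genes 17 were also among the 18 that rose without LPS, 85% of the first list and 94.4% of the second. The 2 comparisons share no library, and across the 30 genes their log2 ratios had Pearson r 0.902 and Spearman rho 0.837, as a description of genes that are not independent.

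Mvd showed the largest change, with 60.3, 55.7 and 43.6 CPM in wild-type Dex with LPS libraries and 28.7, 30.5 and 29.6 CPM in LPS libraries, 1.79-fold (log2 ratio 0.84 ± 0.11 SE, edgeR adjusted p = 2.74e-06). Lss had 158, 174 and 167 CPM with Dex and LPS and 107, 108 and 103 CPM with LPS (log2 ratio 0.66 ± 0.05 SE, edgeR adjusted p = 3.13e-10). Msmo1 had 292, 268 and 295 CPM with Dex and LPS and 177, 186 and 187 CPM with LPS (log2 ratio 0.64 ± 0.05 SE, edgeR adjusted p = 3.25e-09). None of these groups overlapped, although the spread was wider with Dex and LPS, where 2 of the 3 libraries stood apart. Tm7sf2 (0.45 ± 0.10), Ebp (0.41 ± 0.08) and Idi1 (0.53 ± 0.13) were called here and not without LPS. The interaction of Dex and LPS in wild-type cells, which tests that change itself, called 0 of the 30 by edgeR and by DESeq2 (1.56% of all tested genes by edgeR, 0.315% higher and 1.25% lower). At an unadjusted p below 0.05 there were 3 of the 30 and 1570 of the 15221 tested genes, about the same share. The 3 were Ebp at a log2 difference of 0.27 ± 0.11 (SE; edgeR adjusted p = 0.376), Msmo1 at 0.16 ± 0.07 and Insig2 at -0.28 ± 0.10. Only replicate 2 of wild-type Dex with LPS was left without the 5 libraries, so no counts are given. The median log2 ratio of the 30 was then 0.36 for the Dex comparison and 0.06 for the interaction. The adipocyte markers summed to 29.96 to 34.1 CPM with Dex and LPS and 7.26 to 8.32 CPM with LPS in wild-type cells. The rise was again that of Fabp4, with 29.2 ± 2.42 CPM with Dex and LPS and 4.77 ± 0.431 CPM with LPS. Pparg had 3.11 ± 0.386 CPM with Dex and LPS and 2.85 ± 0.522 CPM with LPS (SD, n = 3 each) and was not called. The part of such cells in these changes was not tested.

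Scd2 was the fatty acid gene that rose under LPS, to 1763, 1978 and 2057 CPM with Dex and LPS, against 1471, 1511 and 1501 CPM with LPS in wild-type cells (log2 ratio 0.37 ± 0.06 SE, edgeR adjusted p = 2.61e-05). Fasn, Acaca, Acly and Elovl6 had log2 ratios of -0.02 to 0.08 and were not called. Wild-type Dex with LPS replicate 1, which stood apart, was the lowest of its group for Acaca (92.5, 142 and 171 CPM in replicate order, against 141, 137 and 134 CPM with LPS). It was also the lowest for Elovl6 (97.5, 122 and 132 CPM, against 119, 118 and 118 CPM with LPS) and for Abca1 (14.2, 21.7 and 23.4 CPM, against 24.7, 24.8 and 23.6 CPM with LPS).

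The difference of the Dex response under LPS between mutant and wild-type cells was called lower for 13 of the 30 and higher for 1, Insig2, where 5.03% of all tested genes were called lower and 5.36% higher, or 10.4% in either direction. Mvd differed by -0.72 ± 0.15 (SE; edgeR adjusted p = 0.00198), Lss by -0.55 ± 0.07 (SE; edgeR adjusted p = 2.02e-06), Msmo1 by -0.53 ± 0.07 (SE; edgeR adjusted p = 1.79e-05) and Sqle by -0.51 ± 0.07 (SE; edgeR adjusted p = 1.43e-05). Acat2, Hmgcs1, Sqle, Lss, Cyp51, Msmo1, Dhcr7, Insig1 and Stard4 were in the lists of 13 with and without LPS, 69.2% of each. The fit without the 5 libraries left 1 library of wild-type Dex with LPS. The median difference over the 30 was then -0.30, against -0.30 with all libraries.

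In the authors' deposited tables, whose adjusted p was taken at the same threshold, Dex alone called 0 of the 30 in mutant cells and 18 higher and 1 lower in wild-type cells. For Dex under LPS the authors' deposited tables called 1 in mutant cells, Dhcr7 with a log2 fold change of 0.26 and an adjusted p of 0.0148, and 20 higher and 1 lower in wild-type cells. These tables belong to the same experiment, so like counts are not independent support. The share called of all 12588 genes in each table was not counted.

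LPS alone lowered most sterol synthesis genes in both genotypes. In mutant cells 20 of the 30 were called lower and 3 higher (17.7% and 19.0% of all tested genes, 36.7% in all), and in wild-type cells 16 lower and 1 higher (12.4% and 14.0%). By total counts alone the split over all genes was 4652 lower and 1924 higher in mutant cells and 2986 lower and 1506 higher in wild-type cells. The median log2 ratio of LPS to vehicle was -0.32 in mutant and -0.23 in wild-type cells, against 0.00 and -0.01 over all tested genes. The 16 genes lower in wild-type cells were all among the 20 lower in mutant cells, 100% of the first list and 80% of the second. With libraries scaled by total counts alone, the median of all genes was -0.12 in mutant and -0.09 in wild-type cells, and relative to it the 30 genes' medians of -0.44 and -0.31 remained lower.

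Dhcr7 fell furthest, to 35.03, 35.5 and 35.5 CPM with LPS against 62.7, 66.9 and 64.8 CPM with vehicle in mutant cells (log2 ratio -0.87 ± 0.06 SE, edgeR adjusted p = 1.46e-11), 1.83-fold lower. In wild-type cells it had 32.9, 29.8 and 31.3 CPM with LPS and 44.4, 49.1 and 47.1 CPM with vehicle (log2 ratio -0.58 ± 0.06 SE, edgeR adjusted p = 3.82e-08). The LPS libraries lay below the vehicle libraries of the same genotype in both. Hmgcs1 fell to 292, 272 and 301 CPM with LPS in mutant cells (log2 ratio -0.63 ± 0.07 SE, edgeR adjusted p = 2.72e-07). It fell to 266, 278 and 269 CPM with LPS in wild-type cells (log2 ratio -0.42 ± 0.07 SE, edgeR adjusted p = 0.000107), all below the vehicle values given above. Insig1 fell to 84.5, 91.6 and 92.8 CPM with LPS against 156, 141 and 140 CPM with vehicle in mutant cells (log2 ratio -0.70 ± 0.05 SE, edgeR adjusted p = 2.32e-10). It fell to 79.9, 84.9 and 85.02 CPM with LPS against 114, 118 and 118 CPM with vehicle in wild-type cells (log2 ratio -0.49 ± 0.05 SE, edgeR adjusted p = 1.74e-07).

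All 11 sterol genes were called lower with LPS in mutant cells and 8 in wild-type cells, where Nsdhl (-0.05 ± 0.06), Hsd17b7 (-0.15 ± 0.09) and Sc5d (-0.00 ± 0.07) were not called. Lss had log2 ratios of -0.54 ± 0.05 in mutant and -0.36 ± 0.05 in wild-type cells, and Msmo1 of -0.49 ± 0.05 in mutant and -0.34 ± 0.05 in wild-type cells. In the mevalonate pathway 5 of 7 genes fell in mutant and 4 of 7 in wild-type cells, Mvk and Idi1 being called in neither. Of the fatty acid genes Scd2 (-0.57 ± 0.06 in mutant, -0.43 ± 0.06 in wild-type cells) and Elovl6 (-0.41 ± 0.08 in mutant, -0.24 ± 0.08 in wild-type cells) fell. Fasn was called in neither, with 0.04 ± 0.10 in mutant and -0.02 ± 0.10 in wild-type cells. Stard4 fell in both, with log2 ratios of -0.47 ± 0.08 in mutant and -0.27 ± 0.08 in wild-type cells, and Abca1 was not called (-0.13 ± 0.17 in mutant, -0.11 ± 0.17 in wild-type cells).

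The log2 change with LPS was larger in size in mutant cells for 25 of the 30 genes, and across them the changes in the 2 genotypes had Pearson r 0.864 and Spearman rho 0.823, again as a description. The difference itself, mutant minus wild type, called 0 of the 30 by edgeR, where 0.539% of all tested genes were called, and DESeq2 called 1, Dhcr7. At an unadjusted p below 0.05 in edgeR there were 10 of the 30 and 1337 of the 15221 tested genes. Dhcr7 differed by -0.29 ± 0.08 (SE; edgeR adjusted p = 0.128), with a 95% interval of -0.45 to -0.14. Without the 5 libraries 3 were called lower, Dhcr7, Lss and Scd2 (0.85% of all tested genes). Leaving these libraries out, LPS lowered 25 and raised 3 of the 30 in mutant cells (20.2% and 20.9% of all tested genes), and lowered 21 and raised 2 in wild-type cells (20.3% and 22.1%). The leukocyte markers summed to 171 to 179 CPM with LPS and 177 to 188 CPM with vehicle in mutant cells, and to 84.1 to 85.6 CPM with LPS and 77.0 to 78.6 CPM with vehicle in wild-type cells. These sums hold genes that went both ways, with Cd14, Adgre1 and Ptprc called higher and Csf1r, Lyz2 and Itgam lower with LPS in mutant cells, and the first 3 higher and Csf1r lower in wild-type cells. The endothelial markers summed to 7.26 to 8.16 CPM with LPS and 10.8 to 12.9 CPM with vehicle in mutant cells, and to 21.2 to 21.8 CPM with LPS and 27.2 to 28.6 CPM with vehicle in wild-type cells. Kdr and Tek were called lower in both, and 1 of the 4 tested endothelial markers was called higher in wild-type cells. The part of these cells in the LPS response was not tested.

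**Figure D4:**
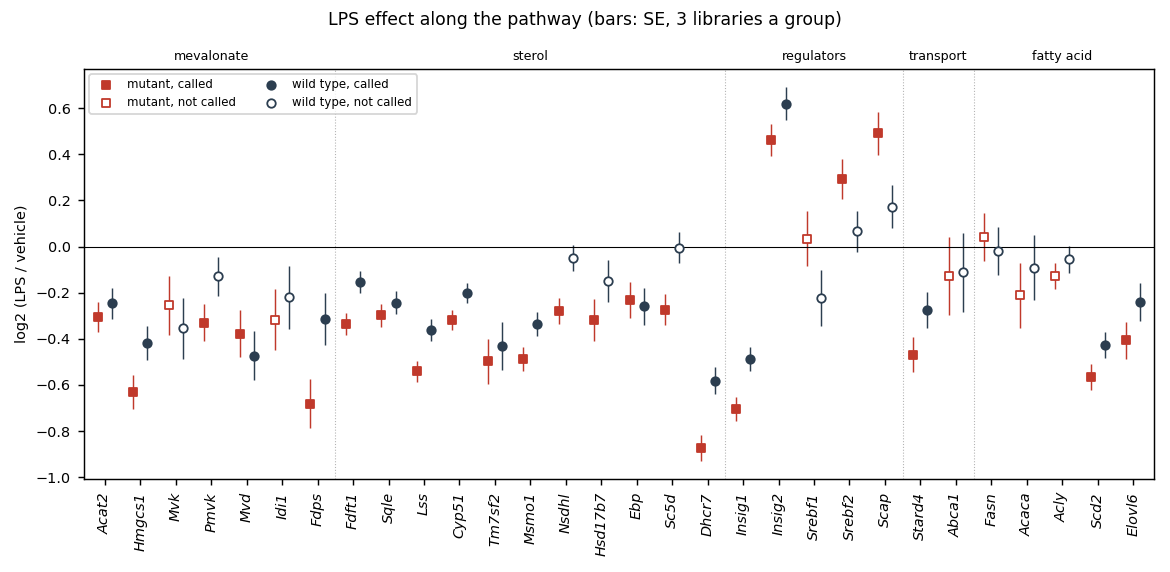
Log2 ratio of LPS to vehicle for the 30 genes in pathway order in mutant (red squares) and wild-type cells (dark circles), with SE from the edgeR fit; filled symbols were called. Most synthesis genes lie below 0, down to -0.87 for Dhcr7 in mutant cells, while Insig2 lies above 0 in both genotypes.

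The regulators did not follow the enzymes as a group. Insig1, itself a target of SREBP, was called in the same direction as most enzymes for Dex in wild-type cells, for LPS and between the genotypes in vehicle. Insig2 went the other way. It had 59.2, 54.2 and 60.5 CPM with Dex and LPS, 55.9, 56.7 and 55.3 CPM with LPS, 34.9, 38.1 and 35.1 CPM with Dex and 44.8, 37.96 and 38.6 CPM with vehicle in mutant cells. In wild-type cells it had 39.7, 42.1 and 48.02 CPM with Dex and LPS, 66.1, 68.96 and 65.99 CPM with LPS, 32.8, 35.8 and 34.1 CPM with Dex and 44.2, 44.7 and 42.01 CPM with vehicle. LPS raised it in mutant (log2 ratio 0.46 ± 0.07 SE, edgeR adjusted p = 1.37e-05) and wild-type cells (log2 ratio 0.62 ± 0.07 SE, edgeR adjusted p = 3.68e-07), while Dex lowered it in wild-type cells without LPS (-0.35 ± 0.07) and with LPS (log2 ratio -0.63 ± 0.07 SE, edgeR adjusted p = 4.21e-07). With Dex and LPS the mutant libraries were all above the wild-type ones.

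Scap rose with Dex in wild-type cells and, with LPS, in mutant cells, where it had 99.4, 94.4 and 89.3 CPM with LPS and 55.6, 74.2 and 72.8 CPM with vehicle (log2 ratio 0.49 ± 0.09 SE, edgeR adjusted p = 0.000202). In wild-type cells its LPS libraries had 73.6, 72.8 and 70.2 CPM, above the vehicle ones but not called (log2 ratio 0.17 ± 0.09 SE, edgeR adjusted p = 0.194). Srebf2, which encodes the SREBP most tied to cholesterol synthesis, rose with LPS in mutant cells, to 287, 291 and 269 CPM against 189, 261 and 243 CPM with vehicle (log2 ratio 0.29 ± 0.09 SE, edgeR adjusted p = 0.0104), a call that was lost when mutant vehicle replicate 1 was left out. Srebf1, which encodes the SREBP most tied to fatty acid synthesis, was called in none of the Dex or LPS comparisons, with log2 ratios of -0.22 to 0.29. Its LPS response in mutant cells was 0.03, and without the 5 libraries it was -0.17 and called. The mRNA of these genes does not show the cleaved, active SREBP protein, which was not measured.

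The genotypes were also compared within each treatment, as comparisons added after the data were seen. With Dex in both, few of the genes differed: 1 of the 30, Elovl6, was called higher in mutant cells and 3, Msmo1, Hsd17b7 and Scap, lower, where 11.3% of all tested genes were called higher and 15.2% lower. The genotype ratio with Dex over that in vehicle is the same contrast as the difference in Dex response, called lower for 13 genes above. The split depended on scaling, with 6 higher and 2 lower by total counts, and without the 5 libraries it was 8 higher and 6 lower (20.4% and 21.9% of all tested genes). Lss had 193, 193 and 194 CPM in mutant and 205, 215 and 205 CPM in wild-type Dex libraries, with no overlap and a log2 ratio of -0.11 ± 0.05 (SE; edgeR adjusted p = 0.0903), which was not called. Msmo1 had 252, 261 and 247 CPM in mutant and 320.1, 323 and 324 CPM in wild-type Dex libraries, all mutant libraries being lower (log2 ratio -0.35 ± 0.05 SE, edgeR adjusted p = 1.54e-05). Hsd17b7 (-0.27 ± 0.09) lost its call when any 1 of the 6 Dex libraries was left out. The leukocyte markers summed to 164 to 184 CPM in mutant and 60.4 to 68.3 CPM in wild-type Dex libraries, so their difference between the genotypes was present with Dex too.

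With LPS in both, 15 of the 30 were higher in mutant cells and 1, Insig2, lower (12.6% and 11.9% of all tested genes), and without the 5 libraries 18 higher and 2 lower (17.8% and 17.2%). Mvd had 38.3, 43.5 and 41.5 CPM in mutant and 28.7, 30.5 and 29.6 CPM in wild-type LPS libraries (log2 ratio 0.47 ± 0.11 SE, edgeR adjusted p = 0.00199). Lss had 129, 124 and 132 CPM in mutant and 107, 108 and 103 CPM in wild-type LPS libraries (log2 ratio 0.28 ± 0.05 SE, edgeR adjusted p = 8.54e-05). Neither gene's groups overlapped. Srebf1, Srebf2 and Scap were higher too, with log2 ratios of 0.42 ± 0.12, 0.33 ± 0.09 and 0.39 ± 0.09.

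With Dex and LPS in both, more genes were lower than higher in mutant cells: 2 of the 30 were called higher, Insig2 and Elovl6, and 9 lower (15.0% and 16.8% of all tested genes, 31.7% in all). Msmo1 had 196, 209.7 and 193 CPM in mutant and 292, 268 and 295 CPM in wild-type libraries (log2 ratio -0.51 ± 0.05 SE, edgeR adjusted p = 3.94e-08), all mutant libraries being lower. Hmgcs1 (-0.36 ± 0.07), Insig1 (-0.32 ± 0.05), Scd2 (-0.30 ± 0.06), Lss (-0.27 ± 0.05), Hsd17b7 (-0.27 ± 0.09), Sqle (-0.26 ± 0.05), Nsdhl (-0.16 ± 0.06) and Fdft1 (-0.12 ± 0.05) were the other 8. Of these 6 libraries 3 stood apart. Fitted on the 6 alone, Insig2, Msmo1 and Insig1 were called, with the share of all tested genes in that fit not given here. Leaving out the 5 libraries left only replicate 2 of the wild-type group. The median log2 ratio of the 30 was then -0.08, against -0.12 with all libraries.

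**Figure D5:**
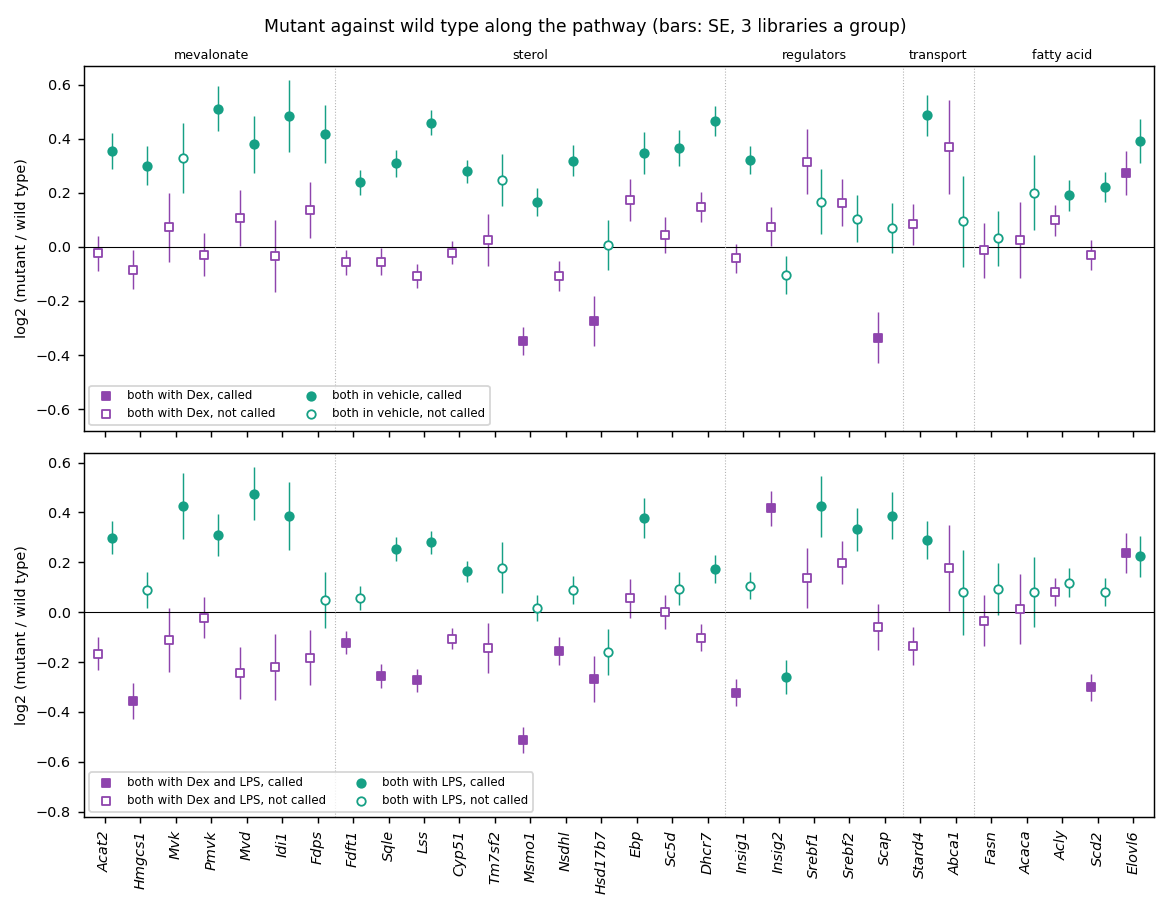
Log2 ratio of mutant to wild type for the 30 genes in pathway order, with Dex (squares) and in vehicle (circles) in the top panel and with Dex and LPS (squares) and LPS (circles) in the bottom panel, with SE from the edgeR fit; filled symbols were called. In vehicle 20 genes are called above 0, and with Dex 1 is called above and 3 below.

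Because the genotype comparison in vehicle and the Dex comparison in wild-type cells share the 3 wild-type vehicle libraries, the 2 are not independent. Set against each other without those libraries, mutant vehicle cells had between 0.806 (Msmo1) and 1.22 (Elovl6) times the mean level of wild-type Dex cells for the 20 genes called in vehicle. Scap stood outside this range, at 0.6998, with 67.5 ± 10.3 CPM in mutant vehicle and 96.5 ± 3.36 CPM in wild-type Dex cells (SD, n = 3 each), and Abca1 at 1.41. These ratios were not tested, and the 20 genes had been called with the same mutant vehicle libraries.

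Further genes of sterol, oxysterol and fatty acid metabolism, were listed by function. Of 23 other sterol genes Dex raised 6 and lowered 2 in wild-type cells, with a median of 0.06, and of 12 genes of the liver X receptor pathway, which senses oxysterols, it raised 1 and lowered 3. Over all tested genes 7.92% were called higher and 5.24% lower. Ch25h, which makes the oxysterol 25-hydroxycholesterol, had 2.97, 2.31 and 2.97 CPM with Dex and 4.796, 6.55 and 5.95 CPM in vehicle in wild-type cells (log2 ratio -1.07 ± 0.17 SE, edgeR adjusted p = 7.02e-05). Abcg1, a sterol exporter, had 1.77, 1.61 and 1.79 CPM with Dex and 3.89, 3.89 and 3.89 CPM in vehicle (log2 ratio -1.17 ± 0.11 SE, edgeR adjusted p = 6.93e-08). Both groups of 3 were separate, and Arl4c (-0.69 ± 0.05) and Mylip, which marks lipoprotein receptors for degradation (-0.36 ± 0.07), also fell. The Dex response of the first 2 differed between the genotypes, mutant minus wild type, by 1.39 ± 0.22 (SE; edgeR adjusted p = 0.000144) for Ch25h and 1.06 ± 0.15 (SE; edgeR adjusted p = 2.93e-05) for Abcg1.

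LPS raised 9 and lowered 2 of the 23 other sterol genes in mutant cells and raised 8 and lowered 3 in wild-type cells. Of the 12 liver X receptor genes it raised 3 and lowered 3 in mutant cells and raised 2 and lowered 3 in wild-type cells. Over all tested genes 19.0% were called higher and 17.7% lower in mutant cells, and 14.0% and 12.4% in wild-type cells. Ch25h had 113, 115 and 100 CPM with LPS and 5.89, 8.04 and 6.54 CPM with vehicle in mutant cells (log2 ratio 4.03 ± 0.12 SE, edgeR adjusted p = 2.87e-17). It had 69.6, 69.7 and 69.5 CPM with LPS and 4.796, 6.55 and 5.95 CPM with vehicle in wild-type cells (log2 ratio 3.59 ± 0.13 SE, edgeR adjusted p = 6.62e-16). This was the largest change in the sterol lists, and Cyp7b1, which hydroxylates oxysterols, rose as well (1.88 ± 0.11 in mutant, 1.85 ± 0.12 in wild-type cells). Abcg1 rose too, to 13.99, 13.3 and 13.2 CPM with LPS against 4.98, 6.18 and 4.73 CPM with vehicle in mutant cells (log2 ratio 1.36 ± 0.09 SE, edgeR adjusted p = 1.17e-11). In wild-type cells it had 8.27, 7.68 and 8.26 CPM with LPS and 3.89, 3.89 and 3.89 CPM with vehicle (log2 ratio 1.05 ± 0.09 SE, edgeR adjusted p = 8.62e-09). Mylip fell in both (-1.18 ± 0.07 in mutant, -0.96 ± 0.07 in wild-type cells). With Dex and LPS, Ch25h had 99.1, 110.1 and 97.9 CPM in mutant and 32.4, 27.9 and 23.4 CPM in wild-type cells. Dex under LPS thus lowered it in wild-type cells (log2 ratio -1.33 ± 0.11 SE, edgeR adjusted p = 3.16e-09) and had a log2 ratio of -0.10 ± 0.10 in mutant cells, which was not called. Of the 12 liver X receptor genes Dex under LPS raised 3 and lowered 2 in wild-type cells, where 10.5% of all tested genes were called higher and 10.6% lower. The 2 lower were Abcg1, with 3.16, 3 and 3.01 CPM with Dex and LPS and 8.27, 7.68 and 8.26 CPM with LPS (log2 ratio -1.40 ± 0.09 SE, edgeR adjusted p = 1.32e-10), and Arl4c, with 82.6, 79.6 and 73.3 CPM with Dex and LPS and 131, 130.4 and 129 CPM with LPS (log2 ratio -0.73 ± 0.05 SE, edgeR adjusted p = 3.36e-11). Nr1h3, the liver X receptor alpha gene, was among the 3 higher at a low level, with 1.201, 1.57 and 1.28 CPM with Dex and LPS and 0.548, 0.512 and 0.544 CPM with LPS (log2 ratio 1.32 ± 0.28 SE, edgeR adjusted p = 0.00118).

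Of 23 further fatty acid genes tested of 24 listed, 6 were higher and 1 lower in mutant vehicle cells, where 8.69% of all tested genes were called higher and 10.1% lower. Dex raised 4 and lowered 0 of them in wild-type cells, where 7.92% of all tested genes were called higher and 5.24% lower. With LPS 5 were called higher and 8 lower in mutant cells, where 19.0% of all tested genes were higher and 17.7% lower. In wild-type cells LPS raised 3 and lowered 8, against 14.0% and 12.4% of all tested genes. Acss2, which makes acetyl-CoA from acetate, had 26.4, 24.6 and 23.9 CPM in mutant and 15.1, 13.8 and 16.3 CPM in wild-type vehicle libraries (log2 ratio 0.73 ± 0.08 SE, edgeR adjusted p = 2.62e-07). With Dex it had 22.9, 23.7 and 22.3 CPM in wild-type cells (log2 ratio 0.61 ± 0.08 SE, edgeR adjusted p = 5.91e-06), above all vehicle libraries, and with LPS it fell in mutant (-0.74 ± 0.08) and wild-type cells (-0.57 ± 0.08). Elovl5, an elongase of polyunsaturated fatty acids, was likewise higher in mutant vehicle cells (0.35 ± 0.05), higher with Dex in wild-type cells (0.39 ± 0.05) and lower with LPS in mutant (-0.33 ± 0.05) and wild-type cells (-0.21 ± 0.05). The Dex response differed between the genotypes for both, mutant minus wild type, by -0.48 ± 0.11 (SE; edgeR adjusted p = 0.006) for Acss2 and -0.44 ± 0.07 (SE; edgeR adjusted p = 0.000161) for Elovl5.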

How the data were processed

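RNA was sequenced after poly(A) selection with a strand-keeping kit, per the labels' protocols, in 24 libraries of 8 groups. The authors deposited counts of reads per gene for each library, made with STAR (2.4.2 and 2.4.2a are named) on mm10, per the submitters' processing notes. The column whose strand setting took most reads, the fourth, was used, and 96 other per-sample columns served no main result. Reads assigned to no gene were 3.10 to 4.72%, multi-mapped reads 3.74 to 5.79% and unmapped reads 2.92 to 5.58% of each library, and these rows stayed out of library sizes. Filters on the reads are not given in the sources used here. The authors also deposited 4 tables of log2 fold changes with adjusted p-values for Dex against vehicle and Dex with LPS against LPS in each genotype, from which values are given only where named.

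Counts were fitted in edgeR 4.0.16 (R 4.3.3) by quasi-likelihood with 1 coefficient per group over all 24 libraries, TMM scaling, edgeR's own filter on low counts and a robust spread. The SE is the log2 change divided by the square root of F, and CPM are TMM-scaled. The 30 genes, the further lists and the marker lists were chosen with earlier results of these data known, so no list gives independent support. All 30 genes were named by rule, and up to 4 called genes from each further list. The 11 planned comparisons and 3 added ones were refitted with RLE scaling, total counts, no filter, DESeq2 1.42.0, unstranded counts, a replicate block and the compared libraries alone, without each replicate, and, added after seeing the data, without 5 libraries and with offsets for GC content and length. In simulated data the fit called 47 of 99 genes changed by a log2 of 0.5 and 81 of 97 changed by 1. These were drawn from all tested genes, and 6 unchanged genes were called. A gene that was not called may therefore still have changed. Same-numbered replicates did not deviate together (r of -0.338 to 0.348 over 48 pairs), so they were not treated as pairs. Near copies were sought with blastn 2.17.0 in the GENCODE vM21 transcripts. Each library held 18.9 to 58.0 M counted reads, which bounds the precision of a level beside the spread between libraries. Some genes of sterol uptake and synthesis are not reported here.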

Additional observations from a re-analysis of the deposited data

Results flagged for a closer look

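The response to Dex differed between mutant and wild-type cells, by a test of the difference in edgeR, for 13 of the 30 genes without LPS and for 14 with LPS. Values are the log2 response in mutant minus that in wild-type cells.

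Without LPS, Pmvk (-0.54), Acat2 (-0.38) and Hmgcs1 (-0.38) of the mevalonate pathway responded less in mutant cells. In the sterol branch the differences were -0.57 for Lss, -0.52 for Msmo1, -0.43 for Nsdhl, -0.36 for Sqle, -0.32 for Sc5d, -0.32 for Dhcr7, -0.30 for Fdft1 and -0.30 for Cyp51. Insig1 (-0.36) and Stard4 (-0.40) completed the list. The Sc5d call, with an edgeR adjusted p of 0.0426, was the weakest and was lost under several alternatives.

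Under LPS, Mvd (-0.72), Idi1 (-0.61), Acat2 (-0.46) and Hmgcs1 (-0.45) responded less in mutant cells. The sterol branch had -0.55 for Lss, -0.53 for Msmo1, -0.51 for Sqle, -0.28 for Dhcr7 and -0.27 for Cyp51. Insig1 (-0.43), Scap (-0.45), Stard4 (-0.43) and Scd2 (-0.38) were also lower, and Insig2, which fell with Dex in wild-type cells under LPS, was higher (0.68).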

How the results depend on the processing

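The values here are how many of the 30 genes were called by edgeR in either direction, unless said otherwise. They stand without the share of all tested genes, which also moved between fits, as given above for Dex in wild-type cells. A count that moved is therefore not by itself a result about the 30 genes. With a replicate block, which moved no count by over 1.5 times, the counts were 0 for Dex and 23 for LPS in mutant cells, 19 for Dex and 17 for LPS in wild-type cells, 0 for Dex under LPS in mutant and 21 in wild-type cells, 20 for the genotypes in vehicle, 12 for the genotype difference of Dex, 0 for that of LPS, 13 for that of Dex under LPS, 0 for the interaction of Dex and LPS in wild-type cells and 4, 16 and 10 for the genotypes with Dex, with LPS and with both. Same-numbered replicates shared only a number. Without the 5 libraries that stood apart, the count was 1 for Dex under LPS in mutant cells (0 with all), 29 for Dex in wild-type cells (19), 21 for the genotype difference of Dex (13), 3 for that of LPS (0) and 14 for the genotypes with Dex (4). Comparisons with wild-type Dex and LPS, then left with 1 library, are not in this list. Fitted on the compared libraries alone it was 30 for Dex and 26 for LPS in wild-type cells (17 with all), 14 for the genotypes with Dex and 3 for the genotypes with Dex and LPS (11). With GC and length offsets it was 1 for Dex under LPS in mutant cells, 2 for the genotype difference of LPS, 2 for the interaction and 10 for the genotypes with Dex. DESeq2 gave 1 for Dex under LPS in mutant cells and 1 for the genotype difference of LPS, and total counts gave 8 for the genotypes with Dex. Leaving out 1 library gave 22 to 24 for LPS in mutant cells, 17 to 19 for Dex and 13 to 16 for LPS in wild-type cells, 17 to 21 for the genotypes in vehicle, 10 to 13 for the genotype difference of Dex, 10 to 18 for that under LPS, 0 to 1 for the interaction, 20 to 22 for Dex under LPS in wild-type cells, 3 to 4 for the genotypes with Dex, 11 to 14 with LPS and 8 to 14 with Dex and LPS. Of the values for single genes called in the main or the other fit, 2 reversed: Srebf1 for LPS in mutant cells was -0.17 without the 5 libraries and Elovl6 for Dex under LPS in wild-type cells was 0.11 with GC and length offsets. In all, 6615 kept their side of the threshold, 222 gained and 181 lost a call. Values called in neither fit are among the 6615 whatever their direction. The cause of these changes was not tested. Counting error adds to the spread between libraries most for the genes of low level.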
